A study of Homo sapiens with 16 samples.

Results

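The 340 regions described here were peaks of ARID1A in shCtrl HCT116 cells that also carried a peak of TRIM28 and a peak of H3K9me3 in the same cells; they are called triple sites below. A member was a peak of the shCtrl ARID1A list called against input, on chromosomes 1 to 22 or X, that overlapped by 1 bp or more a peak of each of 5 other shCtrl lists: ARID1A against IgG, TRIM28 against input and against IgG, and H3K9me3 against input and against IgG. Of the 108926 ARID1A peaks against input, 340 (0.312%) met this rule. The members were thus chosen by the measured peaks of these 6 lists, and those peaks are given below as a description that supports nothing. Over all ARID1A peaks against input, 73.3% had an ARID1A peak against IgG, 2.93% met TRIM28 in both lists and 5.74% met H3K9me3 in both.

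The series is chromatin immunoprecipitation followed by sequencing (ChIP-seq) in HCT116, a human colon cancer cell line, made to look at how ARID1A and heterochromatin are related. In shARID1A cells, which carry a short hairpin RNA against ARID1A, antibodies against TRIM28, H3K9me3 and SETDB1 were used; in shCtrl cells, which carry a control hairpin (CTR in the sample names), the same antibodies and one against ARID1A were used; in cells with no hairpin in their label, called unmodified here, antibodies against ARID1A, TRIM28 and H3K9me3 were used. Each of the 10 precipitated libraries was 1 sample with no replicate, and each kind of cell had 1 input and 1 IgG library as controls. ARID1A precipitated from shARID1A cells was not analysed here, so the loss of ARID1A in them was not checked, and whether a hairpin line was 1 clone or a pool is not given in the sources used here. The files hold peaks and no expression values, so the cell line was not checked against marker genes.

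ARID1A is a DNA-binding subunit of the BAF (SWI/SNF) complex, which moves nucleosomes and mostly works at enhancers and promoters. TRIM28, also called KAP1, is a corepressor that KRAB zinc-finger proteins bring to DNA, largely at retroelements and zinc-finger gene clusters. TRIM28 in turn brings in SETDB1, a methyltransferase that places the trimethyl mark on lysine 9 of histone H3 (H3K9me3), which the heterochromatin protein HP1 binds. A region with ARID1A, TRIM28 and H3K9me3 together thus carries a subunit usually linked to open chromatin beside the corepressor and the mark of closed chromatin.

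Gene starts were where the sequence under triple sites could be read. The bases shown are the 250 before an annotated transcript start, from RefSeq (GRCh38.p14), on the strand of the gene and 5′ to 3′. Capitals mark the bases that lie under the ARID1A, the TRIM28 and the H3K9me3 peak against input at once. The 2 promoters are the ones with the most such bases, 158 at GRAMD2B (chr5:126423159-126423408, plus strand) and 149 at LINC02394 (chr12:74021830-74022079, plus strand).
GRAMD2B: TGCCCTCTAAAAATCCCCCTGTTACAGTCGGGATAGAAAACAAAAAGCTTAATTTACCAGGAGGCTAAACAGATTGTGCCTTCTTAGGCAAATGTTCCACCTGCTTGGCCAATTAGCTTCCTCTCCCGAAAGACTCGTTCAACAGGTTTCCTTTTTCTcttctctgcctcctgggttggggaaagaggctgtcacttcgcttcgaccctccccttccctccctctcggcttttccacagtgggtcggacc
LINC02394: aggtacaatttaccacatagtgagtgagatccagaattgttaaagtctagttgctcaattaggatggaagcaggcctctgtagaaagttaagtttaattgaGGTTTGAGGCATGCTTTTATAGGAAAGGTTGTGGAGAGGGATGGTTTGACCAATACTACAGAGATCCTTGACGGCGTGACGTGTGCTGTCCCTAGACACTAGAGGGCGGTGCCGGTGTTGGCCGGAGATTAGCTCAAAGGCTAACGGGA
GRAMD2B encodes a protein with a GRAM domain, and LINC02394 is a long non-coding RNA. The GRAMD2B triple site, chr5:126422994-126423810, was 817 bp wide and had its ARID1A summit 32 bp from the start. Its fold enrichments against input were 3.15 for ARID1A, 1.98 for TRIM28, 3.40 for H3K9me3 and 4.55 for SETDB1. At the LINC02394 site, chr12:74021620-74022122, the same 4 values were 3.05, 3.21, 3.64 and 6.08. The GRAMD2B window held 7 CpG dinucleotides at 50.4% G and C, and the LINC02394 window held 7 at 46.4%, where the median over 34789 promoter windows was 11 CpG and 58% G and C. Neither window held the AP-1 motif TGACTCA on either strand (TGAGTCA is the same motif read from the other strand), which 4.19% of all windows of that length held.

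The 3 required factors differed in how strong their peaks were at the triple sites. Fold enrichment here is the value the peak caller gave at the summit, and a peak is called strong when its q-value, the p-value adjusted over the genome, was 0.05 or less. ARID1A had a fold against input between 1.88 and 4.78 with a median of 2.96. Of the 340 ARID1A peaks 0 were strong, where 0.0395% of all ARID1A peaks against input were. A q-value under 1 was held by 25 of the 340 and by 2707 of all 108926 ARID1A peaks. TRIM28 ran between 1.80 and 4.88 with a median of 2.73, and again 0 of 340 were strong, where 0.00459% of all ARID1A peaks met a strong TRIM28 peak. H3K9me3 reached further, between 1.76 and 11.67 with a median of 3.12, and 97 of 340 sites (28.5%) had a strong H3K9me3 peak, where 1.96% of all ARID1A peaks did. The rule required an H3K9me3 peak at each triple site and not at all ARID1A peaks. Among the 4384 ARID1A and H3K9me3 sites, defined below, 27.6% had a strong one, nearly the same share. An ARID1A q-value under 1 was held by 274 of the 4384. In the lists against IgG the medians were 2.79 for ARID1A, 2.55 for TRIM28 and 3.01 for H3K9me3.

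**Figure D1:**
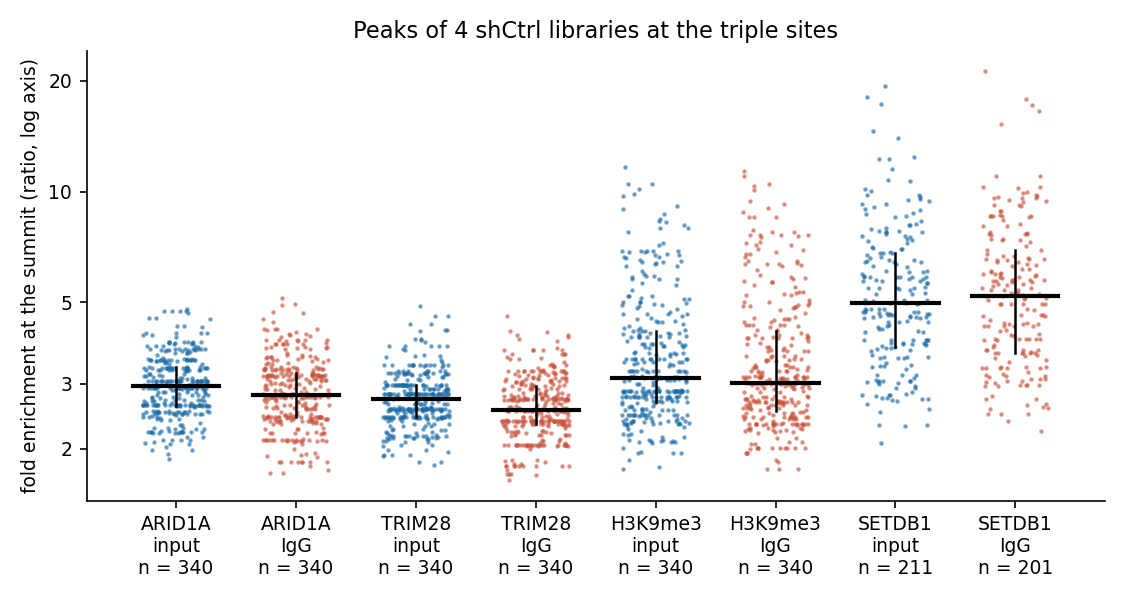
Fold enrichment at the summit (ratio, log axis) of the peaks of 4 shCtrl libraries at the triple sites, against input (blue) and IgG (red); each point is a site, the horizontal bar the median and the vertical bar the interquartile range. ARID1A reaches 5.13 and TRIM28 4.88, H3K9me3 reaches 11.67 and SETDB1, which took no part in the rule, reaches 21.26.

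These folds rest on few DNA fragments. The deposited fold and p-value allow the whole number of fragments stacked at a summit to be solved for, which gave a median of 6 for ARID1A against input (4 to 10 over the 329 sites that could be solved), over a control background with a median of 1.03. TRIM28 had a median of 6 fragments (4 to 11) over 1.01. H3K9me3 had a median of 7 fragments, but its range ran up to 53. SETDB1 had a median of 13 fragments (6 to 55) over 1.14. The backgrounds are on the scale of the fold, where 1 fragment counted as 0.807 for ARID1A, 0.776 for TRIM28 and 0.745 for SETDB1. Fragments and background are thus not in the same unit, and their ratio is not the fold. At the 162 sites solved in all 4 lists against input, the medians were 13 fragments for SETDB1, 9 for H3K9me3, 6.5 for ARID1A and 6 for TRIM28. No list held a peak under a −log10 p of 1.30, an unadjusted p of 0.05. The lowest −log10 p among the members lay between 1.31 (TRIM28 against IgG) and 1.48 (H3K9me3 against IgG) over the 6 lists.

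Just outside the rule, some ARID1A peaks missed exactly 1 of the 5 other lists. Of these, 300 missed TRIM28 against input, 129 missed H3K9me3 against IgG, 122 missed TRIM28 against IgG, 108 missed H3K9me3 against input and 28 missed ARID1A against IgG. The nearest misses were a peak in STX6, a syntaxin gene (chr1:180999017-180999221), and one at chr5:174793823-174794116, each 4 bp from an H3K9me3 peak against IgG. A peak in TEAD1, which encodes a transcription factor of the Hippo pathway (chr11:12798932-12799352), lay 6 bp from an H3K9me3 peak against input, with an ARID1A fold of 4.06.

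The members at which all 6 folds were high were taken in order of the lowest of the 6. An intergenic site at chr1:88327697-88328461 had folds against input of 3.48 for ARID1A, 3.79 for TRIM28 and 6.38 for H3K9me3, and SETDB1 stood at 4.70. A site in INPP4B, which encodes a phosphatase of inositol lipids (chr4:142549051-142549768), had 3.25, 3.55 and 6.30 for the same 3 factors and 9.67 for SETDB1. Its H3K9me3 summit held 21 fragments and its ARID1A summit 7. A site in OSBPL8, which encodes a lipid-transfer protein of the endoplasmic reticulum (chr12:76470476-76470953), had 3.25, 3.13, 4.50 and 5.74.

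ZNF609, a zinc-finger gene, carried a narrow site of 205 bp at chr15:64460143-64460347, beside its start. ARID1A, TRIM28 and H3K9me3 stood at 2.92, 3.21 and 3.25 against input there, and SETDB1 at 14.60 with 37 fragments. Of the 10 members with the highest lowest fold, 7 carried a SETDB1 peak in both lists. The share was 57.4% over all triple sites and 8.45% over all ARID1A peaks, and 10 members are too few to set apart from the 340. The site in LOC124904557 (chr1:234789872-234790094) and the intergenic ones at chr2:184960097-184960373 and chr5:77429435-77429678 had no SETDB1 peak. At the other end, the lowest folds belonged to a site at chr6:139376807-139377419 (TRIM28 against IgG 1.64), a site in CLDND1 (1.69) and a site in ANK2, which encodes the membrane adaptor ankyrin-B (1.70).

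TCF7L2, which encodes the main WNT-responsive transcription factor of the intestine, held the member with the highest H3K9me3 fold against input. At chr10:113086609-113087033 H3K9me3 reached 11.67 against input with 53 fragments, while ARID1A stood at 2.41 and TRIM28 at 2.10. Against IgG its H3K9me3 fold was 6.77, and the highest there was 11.36 at chr3:7876242-7876637. At the TCF7L2 site SETDB1 stood at 10.68 against input, and unmodified ARID1A at 5.03. ARID1B, the paralog that takes the place of ARID1A in the BAF complex, held a site of 205 bp at chr6:156953776-156953980 with folds of 2.48, 2.98 and 2.86 for ARID1A, TRIM28 and H3K9me3, on 5, 6 and 6 fragments. No SETDB1 peak overlapped the ARID1B site.

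The peaks of the 3 factors overlapped without sharing 1 centre. At 292 of the 340 sites the 3 peaks against input had at least 1 base in common, a median of 135 bp and at most 489 bp; at the other 48 the TRIM28 and H3K9me3 peaks met different stretches of the ARID1A peak. The median distance of the TRIM28 summit from the ARID1A summit was 154 bp, and 34.7% of summits lay within 100 bp (Clopper-Pearson 95% interval 29.7 to 40.0). For H3K9me3 the median was 183 bp with 30.6% within 100 bp, and for SETDB1, at its 211 sites, 216 bp with 25.1%. At ARID1A and TRIM28 sites, defined next, the TRIM28 summit lay at a median of 129 bp, with 39.8% within 100 bp. The shearing aimed at fragments longer than all these medians, per the labels' protocols.

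**Figure D2:**
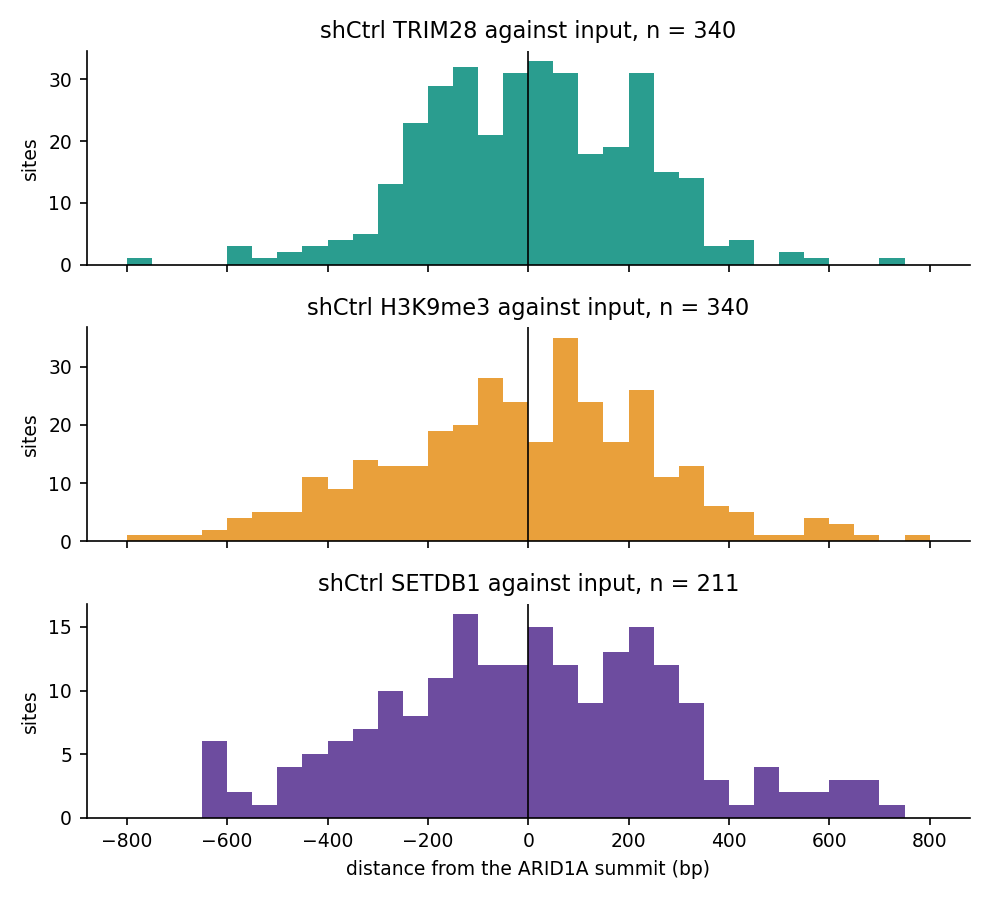
Distance in bp from the ARID1A summit to the summit of the overlapping TRIM28, H3K9me3 and SETDB1 peak against input, in 50-bp bins, with the number of triple sites on the y axis. Summits lie on both sides of 0, and the share within 100 bp is 34.7% for TRIM28, 30.6% for H3K9me3 and 25.1% for SETDB1.

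To see what the triple sites share beyond the rule, they were set against 3 other groups of shCtrl ARID1A peaks that also had a peak against IgG. ARID1A and TRIM28 sites (2167) met TRIM28 in both lists and H3K9me3 in neither; ARID1A and H3K9me3 sites (4384) met H3K9me3 in both and TRIM28 in neither; ARID1A-only sites (63529) met none of the 4. Triple sites were wider, with a median of 330 bp, against 270, 298 and 249 bp in these groups in that order. A wider peak meets an overlap of 1 bp more readily, so the widths are tied to the rule and are given as a description. Median ARID1A folds were 2.96 at triple sites, against 2.88, 2.92 and 2.85. Intervals given below are 95% and cover counting error over sites only, since each library was a single sample; no p-value is given for the same reason.

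SETDB1, the methyltransferase of the pathway, had a shCtrl peak against input at 211 of the 340 triple sites, or 62.1% (56.7 to 67.2), where 11.3% of all ARID1A peaks had one. The share was 14.1% at ARID1A and TRIM28 sites, 47.8% at ARID1A and H3K9me3 sites and 6.50% at ARID1A-only sites. Triple sites thus stood 55.6 percentage points (50.3 to 60.6) above ARID1A-only sites, 48.0 points (42.5 to 53.2) above ARID1A and TRIM28 sites and 14.2 points (8.76 to 19.4) above ARID1A and H3K9me3 sites. Against IgG the share was 59.1% at triple sites, against 12.8%, 46.1% and 6.23% (9.68% of all ARID1A peaks). With the compared sites weighted to the widths of the triple sites, the differences were 52.8 points for ARID1A-only and 11.3 points for ARID1A and H3K9me3 sites.

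SETDB1 was also the factor with the clearest peaks. Its folds at triple sites ran between 2.07 and 19.38 with a median of 4.97 against input, where the median of its whole list was 3.48. This was not particular to triple sites: at ARID1A and H3K9me3 sites the median SETDB1 fold was 4.72. Of the SETDB1 peaks there 75.8% were strong, against 76.8% at triple sites. Of the 211 SETDB1 peaks, 162 were strong, so 47.6% of the triple sites held a strong SETDB1 peak, where 6.85% of all ARID1A peaks did. The SETDB1 lists are taken to share the shCtrl input and IgG libraries with the lists of the rule, and the part of a shared control in this overlap was not tested.

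**Figure D3:**
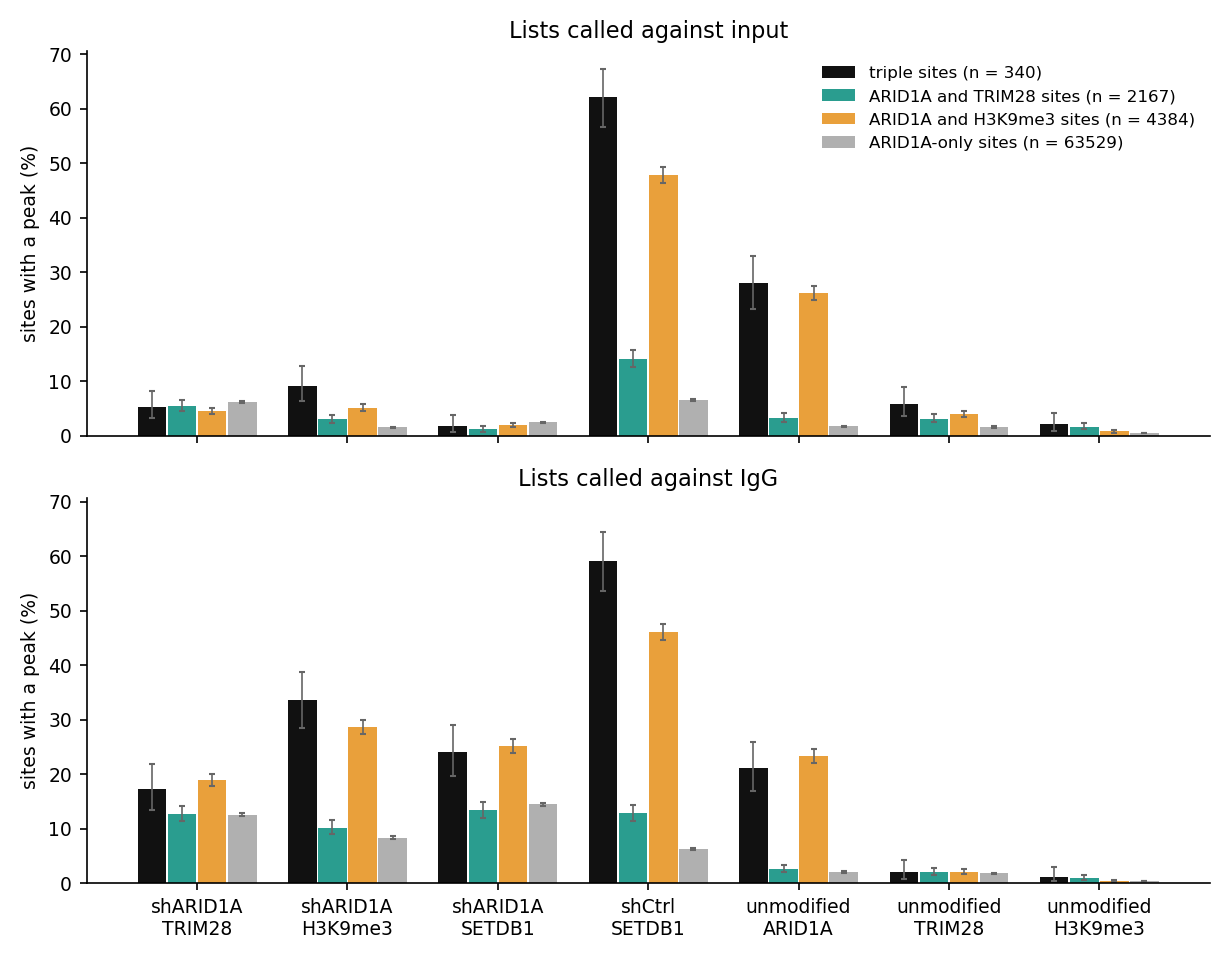
Share of sites (%) with a peak of each library that took no part in the rule, at triple sites (black), ARID1A and TRIM28 sites (green), ARID1A and H3K9me3 sites (orange) and ARID1A-only sites (grey), in the lists against input (top) and IgG (bottom); bars start at 0 and error bars are Clopper-Pearson 95% intervals. The shCtrl SETDB1 share is 62.1% at triple sites, against 14.1%, 47.8% and 6.50%, and the shares of unmodified TRIM28 and H3K9me3 are under 6% at triple sites.

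The triple sites were not uniform in SETDB1. The 195 members with SETDB1 in both lists (57.4%, against 8.45% of all ARID1A peaks) had a median H3K9me3 fold of 3.77. The other 145, called without SETDB1 below, had 2.78. They lacked SETDB1 in at least 1 list, and 16 of them met a SETDB1 peak against input alone and 6 against IgG alone. A strong H3K9me3 peak lay at 83 of the 195 (42.6%) and at 14 of the 145 (9.66%). Their ARID1A folds differed less, with medians of 3.02 with SETDB1 and 2.92 without, and the median TRIM28 fold was 2.73 in both. Sites with SETDB1 were also wider, 392 bp against 289 bp, and a wider site meets an overlap of 1 bp more readily.

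Ordered into 4 groups of 85 sites by the lower of their H3K9me3 folds, the members showed a SETDB1 share in both lists of 38.8% in the lowest group, then 44.7%, 58.8% and 87.1% in the highest. The highest group, with H3K9me3 folds of 3.84 and above, had an interval of 78.0 to 93.4 and the lowest group one of 28.4 to 50.0; the order uses H3K9me3 folds of the lists that chose the members, so it is a description. Median ARID1A folds over the same groups were 2.85, 2.98, 3.05 and 3.05, and median TRIM28 folds 2.68, 2.68, 2.78 and 2.70. Median widths were 291, 327, 351 and 362 bp; the part of width in the order was not tested.

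**Figure D4:**
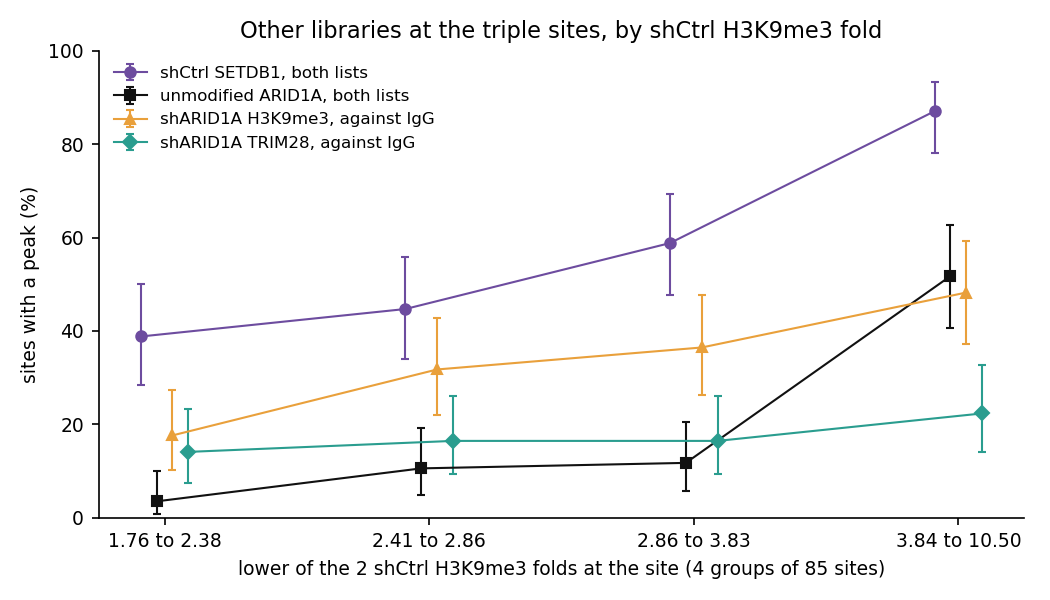
Share of triple sites (%) with a peak of 4 other libraries, in 4 groups of 85 sites ordered by the lower of the shCtrl H3K9me3 folds (ratio); error bars are Clopper-Pearson 95% intervals. shCtrl SETDB1 in both lists runs 38.8%, 44.7%, 58.8% and 87.1%, and unmodified ARID1A in both lists 3.53%, 10.6%, 11.8% and 51.8%.

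In shARID1A cells TRIM28 had a shARID1A peak at 18 sites, or 5.29% (3.17 to 8.24), where 5.77% of all ARID1A peaks had one. The share was 5.49% at ARID1A and TRIM28 sites, a difference of −0.20 points (−2.38 to 2.85), and 6.22% at ARID1A-only sites, which held no TRIM28 peak in shCtrl cells. Against IgG, shARID1A TRIM28 met 59 triple sites, or 17.4%, where 12.6% of all ARID1A peaks did, and the difference from ARID1A and TRIM28 sites was 4.62 points (0.677 to 9.20). The difference from ARID1A-only sites against input was −0.92 points (−2.852 to 2.001), an interval that includes 0. The list against input held 203714 TRIM28 peaks in shARID1A cells and 70447 in shCtrl cells.

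H3K9me3 in shARID1A cells overlapped more of them. It had a peak against input at 31 triple sites, or 9.12% (6.28 to 12.7), where 1.95% of all ARID1A peaks had one, and the share was 5.09% at ARID1A and H3K9me3 sites, a difference of 4.03 points (1.32 to 7.62). Against IgG it met 114 triple sites, or 33.5% (28.5 to 38.8), where 10.1% of all ARID1A peaks did; the difference from ARID1A and H3K9me3 sites was 4.88 points (−0.117 to 10.2), an interval that includes 0. The difference against input also had intervals that include 0 when peaks had to overlap by 50% of the shorter one (0.697 points, −1.97 to 5.47) and when every peak needed an unadjusted p of 0.01 or less (2.80 points, −0.841 to 8.70). The shARID1A list held 56886 H3K9me3 peaks against input and the shCtrl list 92063.

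Within the triple sites, the H3K9me3 peaks of shARID1A cells lay mostly where shCtrl cells had SETDB1. Against IgG they met 50.8% of the 195 sites with SETDB1 in both lists and 10.3% of the other 145, a difference of 40.4 points (31.2 to 48.4). Among sites no wider than the median the shares were 36.7% and 8.70%, and among wider sites 60.3% and 13.2%, so the order was the same in narrower and in wider sites. The same split among ARID1A and H3K9me3 sites gave 49.8% with SETDB1 and 12.1% without, so it was not limited to triple sites. Against input the shares at triple sites were 14.9% and 1.38%. TRIM28 of shARID1A cells showed no such steady order: against IgG it met 21.0% with SETDB1 and 12.4% without, a difference of 8.61 points (0.443 to 16.3), and against input 3.08% and 8.28%, a difference of −5.20 points (−11.1 to −0.284). Sites with SETDB1 also had higher shCtrl H3K9me3 folds. Over the 4 groups of that fold, shARID1A H3K9me3 against IgG met 17.6%, 31.8%, 36.5% and 48.2% of sites. The parts of width and of that fold in the SETDB1 split were not tested.

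SETDB1 itself was called at far fewer triple sites in shARID1A cells. Against input it met 6 triple sites in shARID1A cells (1.76%, where 2.15% of all ARID1A peaks did) and 211 in shCtrl cells (62.1%), a difference of −60.3 points (−65.3 to −54.7). Of these sites 5 had SETDB1 in both kinds of cells, 1 in shARID1A cells alone and 206 in shCtrl cells alone. Against IgG it met 82 sites in shARID1A cells (24.1%, where 14.7% of all ARID1A peaks did) and 201 in shCtrl cells (59.1%), a difference of −35.0 points (−41.1 to −28.5). The lower shARID1A share was not particular to triple sites: at ARID1A and H3K9me3 sites the difference was −45.9 points (−47.5 to −44.4) against input and −20.9 points (−22.6 to −19.2) against IgG. At ARID1A-only sites it was −4.09 points (−4.31 to −3.87) against input, and 8.28 points (7.97 to 8.59) against IgG.

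The 2 SETDB1 libraries differed across the genome as well. The shARID1A lists held 39245 peaks against input and 276586 against IgG, and the shCtrl lists 79404 and 114369, of which 1363 and 6838 were strong in shARID1A cells and 37702 and 55343 in shCtrl cells. With 1 library of each, the cells and the library cannot be told apart in these differences.

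Members with a peak in shARID1A cells in both lists of TRIM28 or of H3K9me3 numbered 42 (12.4%, where 5.24% of all ARID1A peaks did); 14 had TRIM28 (4.12%, where 3.75% of all ARID1A peaks did) and 30 had H3K9me3 (8.82%, where 1.72% did). Both factors were in both lists at 2 of the 340, or 0.588% (0.23% of all ARID1A peaks). A site in RAPGEF4, which encodes an exchange factor activated by cyclic AMP (chr2:172799805-172800032), had TRIM28 at 2.28 against input in shARID1A cells, against 3.26 in shCtrl cells. In ATP1B1, which encodes the beta subunit of the sodium pump (chr1:169114006-169114328), H3K9me3 stood at 3.14 in shARID1A cells, against 6.44 in shCtrl cells, and SETDB1 had no peak in shARID1A cells, against 7.03 in shCtrl cells. A site in IL15, a cytokine gene (chr4:141713834-141714090), had H3K9me3 at 2.42 in shARID1A cells, against 5.78 in shCtrl cells. A site in ZFPM2, which encodes a cofactor of GATA factors (chr8:105717952-105718203), ran the other way, with H3K9me3 at 3.81 in shARID1A cells and 3.07 in shCtrl cells. Folds of separate lists depend on each library's depth, so these pairs are values side by side and not a measured change.

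In unmodified cells the libraries of the same names overlapped the triple sites to very different degrees. Unmodified ARID1A had a peak against input at 95 triple sites, or 27.9% (23.2 to 33.0), where 3.90% of all shCtrl ARID1A peaks met one. This share was 26.2 points (21.7 to 31.2) above ARID1A-only sites at 1.73% and 24.7 points (20.1 to 29.8) above ARID1A and TRIM28 sites at 3.23%. It differed from the 26.1% of ARID1A and H3K9me3 sites by 1.80 points (−2.89 to 6.96), an interval that includes 0. Unmodified TRIM28 met 20 triple sites (5.88%, where 2.05% of all shCtrl ARID1A peaks did) and unmodified H3K9me3 met 7 (2.06%, where 0.613% did). Against IgG they met 7 (2.06%, where 1.82% of all shCtrl ARID1A peaks did) and 4 (1.18%, where 0.464% did), so the TRIM28 share was near the background there, and its difference from ARID1A-only sites was 0.26 points (−0.80 to 2.39). The unmodified lists against input held 29576 peaks of ARID1A, 32927 of TRIM28 and 11374 of H3K9me3.

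The ARID1A peaks of unmodified cells were most frequent at the members with the highest H3K9me3 folds in shCtrl cells. The 66 members with unmodified ARID1A in both lists (19.4%, where 2.44% of all shCtrl ARID1A peaks met both) had a median shCtrl H3K9me3 fold of 5.49, against 2.86 at the other 274, and 75.8% of the 66 held a strong H3K9me3 peak, against 17.2% of the 274. Their shCtrl ARID1A folds were nearly the same, 3.05 against 2.93, and so were their TRIM28 folds, 2.65 against 2.75. Of the 66, 64 (97.0%) had a shCtrl SETDB1 peak against input, against 53.6% of the 274 and 11.3% of all shCtrl ARID1A peaks. Over the 4 groups of the H3K9me3 fold the share with unmodified ARID1A in both lists was 3.53%, 10.6%, 11.8% and 51.8%, while unmodified H3K9me3 met 1, 0, 2 and 4 sites against input. More of these members thus met unmodified ARID1A than unmodified H3K9me3. All were chosen as peaks of both shCtrl ARID1A and shCtrl H3K9me3, so the overlap cannot be assigned to either library alone. The unmodified lists against input also differed, with 835 strong peaks of ARID1A and 15 of H3K9me3. Whether the labels of the libraries bear on the overlap was not tested.

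Single members with an unmodified peak in both lists, the feature they were picked for, are given as values. At an intergenic pair at chr3:7876242-7876637 and chr3:7876811-7877294 shCtrl ARID1A stood at 2.21 and 3.81 against input and shCtrl H3K9me3 at 10.50 and 10.14, with unmodified ARID1A at 4.50 for both. A site in RCL1, a gene of ribosomal RNA processing (chr9:4833153-4833435), had the highest shCtrl ARID1A fold against IgG, 5.13, with 4.74 against input, and unmodified ARID1A stood at 2.46. A site in ZBTB20, which encodes a zinc-finger repressor (chr3:114640067-114640526), had shCtrl ARID1A at 4.66, H3K9me3 at 3.51 and unmodified ARID1A at 3.39.

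Triple sites lay in genes about as often as other ARID1A sites. Within a protein-coding or lncRNA gene of the RefSeq table, extended by 1000 bp, lay 226 of the 340 sites (66.5%), against 67.4% of ARID1A-only sites, a difference of −0.96 points (−6.15 to 3.87). They touched 172 protein-coding genes, 0.861% of the 19970 in the table, and 37.9% of the sites lay in protein-coding genes over 100000 bp long, against 34.7% of ARID1A-only sites (difference 3.24 points, −1.77 to 8.52). PPP3CA, which encodes the catalytic subunit of calcineurin, held 3 triple sites. Their H3K9me3 folds against input were 4.20, 4.64 and 3.81, and each also had SETDB1 in both lists, with folds of 7.43, 3.56 and 4.43 against input. Another 17 genes held 2 each, among them CDK6, a cell-cycle kinase, INPP4B, and PDGFC, which encodes a growth factor. The 17 include the close pairs in FAM114A1 and SYTL2 given below. No matching count of genes with several sites was made for other ARID1A peaks. The CDK6 sites had H3K9me3 at 6.91 and 4.79 and SETDB1 at 5.71 and 8.13, while the PDGFC sites differed, with H3K9me3 at 2.47 and 9.87 and SETDB1 at 17.34 at the second alone.

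Gene groups known for TRIM28 and H3K9me3 held triple sites in small numbers. Among genes named ZNF or ZFP with a number, 3 of 495 held a triple site (ZNF407, ZNF608 and ZNF609), or 0.606%, where the share over all protein-coding genes was 0.861%. Of those with any shCtrl ARID1A peak against input, 3 of 179 did (1.68%), against 172 of 10465 protein-coding genes (1.64%). The list of ZBTB genes had 1 of 40 (ZBTB20). None of 53 clustered protocadherins, 390 olfactory receptors, 32 interferon and RNA-sensing genes, 30 genes of the Hippo, AP-1 and MET group or 40 genes of the TRIM28, SETDB1 and H3K9me3 pathway held one. Among 28 SWI/SNF subunit genes 1 did (ARID1B) and among 33 WNT and intestinal genes 1 did (TCF7L2). These counts are too small to set the lists apart from all genes.

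Transcript starts were compared over the 310 triple sites off chromosome 8, for which promoter windows were at hand. Within 1 kb of a start lay 13 of them (4.19%), against 5.41% of ARID1A-only sites (difference −1.22 points, −2.95 to 1.64). The window reaching from 250 bp before to 50 bp after a start was overlapped by 8 sites (2.58%), against 1.00% of ARID1A and TRIM28 sites (difference 1.58 points, 0.20 to 4.03), 2.49% of ARID1A and H3K9me3 sites and 2.76% of ARID1A-only sites. Over 50 kb from any start lay 36.8%, against 43.0% of ARID1A-only sites (difference −6.18 points, −11.4 to −0.666). Over all ARID1A peaks off chromosome 8, the shares were 4.64% within 1 kb, 2.16% for the window and 42.6% over 50 kb. The triple-site intervals were 2.25 to 7.06, 1.12 to 5.02 and 31.4 to 42.4, so only the last does not hold the share of all peaks. Besides GRAMD2B and LINC02394, the window of SEC23B, a gene of COPII vesicle coats, lay under ARID1A, TRIM28 and H3K9me3 peaks that did not all meet within it.

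By chromosome, triple sites were most frequent on chromosomes 2 and 3, with 40 each, and chromosome 6, with 37. Chromosome 8 held 30 sites, or 8.82%, against 5.02% of ARID1A-only sites, a difference of 3.80 points (1.22 to 7.30). The share of chromosome 8 was also 7.98% at ARID1A and TRIM28 sites and 9.48% over the whole shCtrl TRIM28 list against input. It was 8.06% over the shCtrl H3K9me3 list against input and 7.25% over all ARID1A peaks, within the triple-site interval of 6.03 to 12.4. Chromosome 7 held 13 sites, or 3.82%, against 7.27% of ARID1A-only sites (difference −3.45 points, −5.04 to −0.835) and 7.01% of all ARID1A peaks. Chromosomes 19 and X held 0 of 340, which allows a share of up to 0.882% at the limit of 3 counts and has a Clopper-Pearson upper bound of 1.08%. Chromosome 19, where most KRAB zinc-finger genes lie in clusters, took 0.551% of ARID1A-only sites, so its lack of triple sites was not distinguishable at this number of sites. With 23 chromosomes compared, 1 interval in 20 is past 0 by counting error alone, and the gene copy number of HCT116 was not used here.

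**Figure D5:**
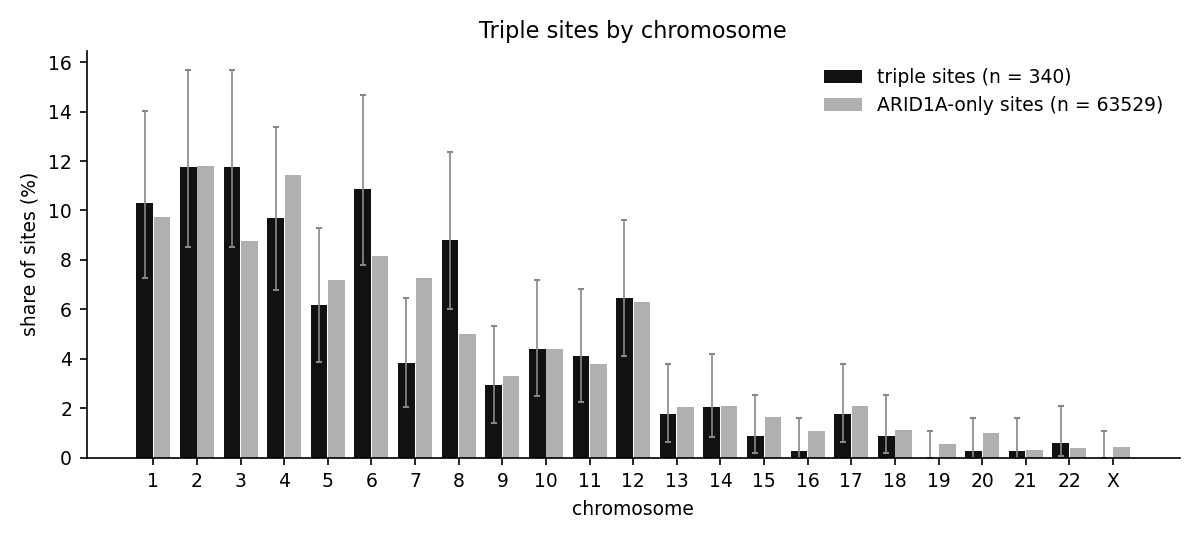
Share (%) of the 340 triple sites (black) and of the 63529 ARID1A-only sites (grey) on each chromosome; error bars on the black bars are Clopper-Pearson 95% intervals. Chromosome 8 holds 8.82% of triple sites, against 5.02% of ARID1A-only sites, and chromosome 7 holds 3.82%, against 7.27%. Over all ARID1A peaks against input, not drawn, chromosome 8 holds 7.25% and chromosome 7 holds 7.01%.

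Most triple sites had no other triple site within 10 kb. The median gap to the next one on a chromosome was 2.80 Mb, and 9 pairs, 18 sites, lay within 10 kb of each other. Such gaps depend on the number of sites, and no other group of 340 sites was compared. The closest pairs were in FAM114A1 (149 bp apart), in SYTL2, which encodes a synaptotagmin-like protein (156 bp), and at chr3:7876242-7876637 (174 bp). Both members of the SYTL2 pair overlapped the same TRIM28 peak, with a fold of 4.60 against input, so they are not independent; the 340 sites met 338 different TRIM28 peaks and 340 different H3K9me3 peaks against input. A site beside CITED2, which encodes a coactivator that binds CBP and p300, lay 5461 bp from the next member. The widest members were in AP3S1 (1170 bp), a subunit gene of the AP-3 vesicle adaptor, in MBNL1 (1113 bp), which encodes a splicing regulator, and in PHLDB2 (1056 bp).

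Triple sites met the lists of other libraries more often than most ARID1A peaks did, with smaller differences from ARID1A and H3K9me3 sites. Of the 340, 75 (22.1%) met no list of any library outside the rule, shCtrl SETDB1 included, where 60.6% of all ARID1A peaks met none; the difference from ARID1A and H3K9me3 sites was −7.94 points (−12.2 to −3.04). No list of shARID1A cells met 163 (47.9%), where the share over all ARID1A peaks was 69.6%, and the difference from ARID1A and H3K9me3 sites was −2.42 points (−7.89 to 3.08). No list of unmodified cells met 223 (65.6%), where the share over all ARID1A peaks was 91.2%, and the same difference was −2.20 points (−7.58 to 2.84). TRIM28 and H3K9me3 of shARID1A cells both met 32 sites (9.41%) against IgG, where 3% of all ARID1A peaks met both, against 9.19% of ARID1A and H3K9me3 sites (difference 0.22 points, −2.59 to 3.89). TRIM28, H3K9me3 and SETDB1 of shARID1A cells all met 12 sites (3.53%) against IgG, where 1.59% of all ARID1A peaks met all 3, against 5.31% of ARID1A and H3K9me3 sites (difference −1.79 points, −3.44 to 0.828).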

How the data were processed

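The tools named for these peak lists are MACS2 2.2.7.1, with Bowtie2 2.2.5 and FastQC 0.11.9, and the builds GRCh38 and hg38, per the submitters' processing notes; the settings the authors used were not at hand. The deposited files were 20 peak lists, 1 for each of 10 libraries against input and against IgG. Each peak has the authors' fold enrichment (a ratio of pileup to control at the summit), −log10 p and −log10 q, per the files' format; a −log10 q of 0 is a q-value of 1. Start and end positions decided the overlaps, and summit positions gave the distances. The deposited score column was not used. Peak lists hold no total read count, so the depth per library is unknown apart from the fragment numbers given.

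Peaks on chromosomes 1 to 22 and X were overlapped at 1 bp or more; where several overlapped, the one with the highest fold was used. Shares have Clopper-Pearson intervals; differences have Newcombe intervals, and those over the same sites Newcombe's paired ones. Fragments were solved from fold and p (whole within 0.01 for 100% of 200 sampled peaks under 4-fold in each of the 8 shCtrl lists). Scripts were tested on simulated data. Genes and promoter windows came from RefSeq GRCh38.p14. The labels' H3K9me3 and TRIM28 antibody products differ between protocol and sample fields. Python 3.11.15, numpy 2.4.6, pandas 2.3.3, scipy 1.17.1 and matplotlib 3.10.9 were used.

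The members, gene lists and tests were chosen with earlier results of these data known. Sites named are the 10 with the highest lowest fold over the 6 lists, the 10 such with SETDB1 in both lists, with shARID1A TRIM28 or H3K9me3 in both lists and with an unmodified peak in both lists, the 3 widest, the 5 closest pairs, the 3 lowest, the 3 nearest misses and members in listed genes; promoters and genes with several sites (GRAMD2B, LINC02394, SEC23B, PPP3CA, CDK6 and PDGFC) were chosen after their values were seen.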

Additional observations from a re-analysis of the deposited data

How the results depend on the processing

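Over 12 settings, 79 alternative values were computed for 8 results; 54 lay within the interval of the reported value (for the number of sites, within 1.5 times it), and 25 did not. The sign turned for 7, all of differences whose reported interval includes 0. The number of triple sites was 154 when peaks had to overlap by at least 50% of the shorter one, 135 at an unadjusted p of 0.01, 1197 with input lists alone and 6500 with IgG lists alone. The SETDB1 difference from ARID1A-only sites was 49.1 points under the 50% overlap, 44.3 with strong SETDB1 peaks alone, 45.7 with input lists alone and 21.975 with IgG lists alone; that from ARID1A and H3K9me3 sites was 4.88 with IgG lists alone. The unmodified ARID1A difference was 19.1 against IgG, 18.5 in both lists, 19.4 under the 50% overlap, 3.13 for strong peaks, 20.3 with input lists alone and 8.73 with IgG lists alone. The shARID1A TRIM28 difference turned to 4.62 against IgG (0.677 to 9.20), 0.887 in both lists, 1.85 at a p of 0.01, 0.11 for strong peaks and 0.755 with IgG lists alone (0.0858 to 1.47). The shARID1A H3K9me3 difference was 0.697 under the 50% overlap and 1.14 with IgG lists alone. The SETDB1 difference between shARID1A and shCtrl cells was −35.0 against IgG, −53.2 under the 50% overlap, −47.4 for strong peaks, −50.5 with input lists alone, −23.4 with IgG lists alone and −66.2 with sites extended by 1000 bp. The gene-body difference turned to 5.35 at a p of 0.01 (−2.73 to 12.2) and 1.67 with IgG lists alone (0.506 to 2.82). The cause of these moves was not tested. Comparisons of SETDB1 with ARID1A and H3K9me3 sites were chosen after seeing the data. No paired analysis was possible because each group was 1 library; the paired intervals used elsewhere are over sites, not samples.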

Other observations

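In unmodified cells, 15 of the 29576 ARID1A peaks against input carried ARID1A, TRIM28 and H3K9me3 in both lists of each. None of the 15 overlapped a shCtrl triple site, and 1 triple site lay within 10 kb of one. Only 95 triple sites met any of the 29576 unmodified ARID1A peaks, so 15 peaks are too few to read a lack of overlap.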
